A study of Homo sapiens with 18 samples.

Results

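Aminoacyl-tRNA synthetases join each amino acid to the tRNA that carries its codon's complement, and so supply every ribosome in the cell. The cytosol and the mitochondrion use largely separate sets of these enzymes, each encoded by its own nuclear gene. Several cytosolic synthetases sit together in a multi-synthetase complex held by scaffold proteins, and many cytosolic synthetase genes are known targets of ATF4, the transcription factor that the amino acid stress response induces. In plasma cells and myeloma, which secrete antibody in bulk, demand for charged tRNA is high.

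The 39 genes described here were taken by symbol from the 26249 genes in the deposited tables, and all 39 were found. They comprise 20 genes for cytosolic enzymes, 16 for mitochondrial enzymes (symbols ending in 2) and 3 for the scaffold proteins AIMP1, AIMP2 and EEF1E1. AIMP2 ends in 2 but is a scaffold of the cytosolic complex, and was counted there. GARS and KARS each encode both the cytosolic and the mitochondrial enzyme of their amino acid, and were counted as cytosolic. EPRS joins glutamate and proline to their tRNAs in 1 protein, and FARSA and FARSB are the subunits of a single enzyme.

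The samples were XG1 and AMO1 cells, both labelled as multiple myeloma lines, grown for 24 h with YKL-5-124, an inhibitor of the transcription and cell cycle kinase CDK7, at 1000 nM or at 100 nM, or with DMSO, its solvent. Each of the 6 groups had 3 libraries, 18 in all, made with a 3' end method (QuantSeq) and given as FPKM (fragments per length of transcript and depth of library). The series title speaks of resistant lines, but the labels do not say which line is meant, and they name no genetic change in either line. The labels also do not say that replicates were separate cultures, so p-values measure the spread between these libraries. Because 3' reads are divided by transcript length, FPKM values of different genes are not compared with each other below, except as changes or as ratios within a pair across libraries.

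The summed FPKM of all genes was lower in treated libraries, while the sum of the 92 spike-in rows stayed between 166717 and 187657 in all 18. In XG1 the sum over genes averaged 1315368 with DMSO, 1066006 at 100 nM and 964298 at 1000 nM. In AMO1 it averaged 1515077 with DMSO, 941623 at 100 nM and 600616 at 1000 nM, with AMO1 1000 nM replicate 2 lowest of the 18 at 431965. Every result is therefore given on the deposited scale and, where it matters, on a relative scale on which each library was divided by its median-ratio size factor, so that the median gene does not move. The read depth of the libraries is unknown, since the files hold no counts. In bulk libraries such as these, fewer cells of a type and less RNA per cell cannot be told apart.

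The AMO1 libraries carried the plasma cell markers that their label implies, and the XG1 libraries held most of them at far lower levels. XBP1 was closest, with means of 82.6 FPKM in XG1 and 214 FPKM in AMO1 with DMSO, and made up most of the XG1 sum. The 9 plasma cell markers summed to 91.3 to 144 FPKM in XG1 DMSO libraries and 8206 to 9217 FPKM in AMO1 DMSO libraries. SDC1, the plasma cell surface proteoglycan CD138, averaged 24.2 ± 12.4 FPKM in XG1 and 5067 ± 325 FPKM in AMO1 with DMSO (SD, n = 3 each), and IRF4, the transcription factor on which myeloma cells depend, averaged 0.53 FPKM in XG1 and 77.5 FPKM in AMO1. The 9 erythroid markers, which include the globin genes HBG1 and HBA1, summed to 4560 to 4937 FPKM in XG1 and 3.51 to 6.33 FPKM in AMO1 with DMSO. With DMSO, 5 myeloid markers summed to 121 to 147 FPKM in XG1 and 0.458 to 1.31 FPKM in AMO1. In XG1 these were mainly ITGAM (mean 71.7 FPKM) and CD33 (47.2 FPKM), while MPO and CD14 averaged 0.26 and 0.32 FPKM. CD7, a T and NK cell marker, averaged 45.5 FPKM in XG1 and 0.09 FPKM in AMO1 with DMSO. At 1000 nM the erythroid sum was 3235 to 3578 FPKM in XG1, below its DMSO range, and the plasma cell sum was 5149 to 7996 FPKM in AMO1, also below its DMSO range. At 100 nM the plasma cell sum in AMO1 was 9762 to 10500 FPKM, above its DMSO range, and the erythroid sum in XG1 was 2909 to 3665 FPKM. Most of the AMO1 plasma cell sum was SDC1, which averaged 7801 FPKM at 100 nM and 5468 FPKM at 1000 nM. In AMO1, JCHAIN averaged 1924 FPKM with DMSO and 1209 FPKM at 100 nM, and MZB1 873 and 637 FPKM. TNFRSF17, IRF4, XBP1 and SLAMF7 also averaged lower at 100 nM than with DMSO, while PRDM1 and CD38 hardly moved. The rise in the AMO1 sum at 100 nM was therefore that of SDC1. The part of these shifts in the results below was not tested. The name XG1 below is that of the label, its identity was not tested, and no AMO1 comparison with DMSO uses an XG1 library.

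Promoter windows are shown for the 6 members that hold the element ATF4 is known to bind, since most of the cytosolic genes below are ATF4 targets. This element, the CARE, was searched as TGATGNAA on either strand. Of the 39 members, 33 had a promoter in the RefSeq table (GRCh38.p14, 250 bases before to 50 after the annotated start). DARS, LARS, VARS, YARS, AARS2 and VARS2 had none there. The element lay in 5 of 16 cytosolic promoters (31.2%), in 1 of 14 mitochondrial promoters (7.14%) and in 0 of 3 scaffold promoters. It lay in 3.62% of all 35116 promoters in the table and in 2.69% of the 22199 protein-coding ones. The 6 windows below run 5′ to 3′ on the strand of each gene, with the match in capitals.
AARS: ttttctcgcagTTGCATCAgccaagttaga
GARS: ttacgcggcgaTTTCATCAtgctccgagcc
IARS: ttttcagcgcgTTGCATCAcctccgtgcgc
MARS: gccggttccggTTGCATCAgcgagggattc
NARS: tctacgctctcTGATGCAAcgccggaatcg
YARS2: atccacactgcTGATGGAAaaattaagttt

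These windows lie at chr16:70289675-70289704 (minus strand) for AARS, chr7:30594834-30594863 (plus) for GARS, chr9:92293692-92293721 (minus) for IARS, chr12:57488053-57488082 (plus) for MARS, chr18:57621804-57621833 (minus) for NARS and chr12:32756076-32756105 (minus) for YARS2. In AARS, IARS and MARS the 8 capital letters are identical, TTGCATCA, which is the reverse complement of the TGATGCAA of NARS. The match began 187 bases before the start in AARS, 33 before it in GARS, 13 in IARS and 4 in MARS, and 15 bases into the transcript in NARS. All 5 cytosolic genes with a match belong to a list of 13 cytosolic synthetase genes known as ATF4 targets, of which 10 had a promoter. None of the other 6 cytosolic promoters held it. The E-box CACGTG lay in 1 cytosolic promoter (IARS) and 2 mitochondrial ones (EARS2 and MARS2), and in 7.26% of all promoters. The consensus of NRF1, a regulator of nuclear genes for mitochondrial proteins, lay in 3 cytosolic promoters (FARSB, SARS and TARS) and 3 mitochondrial ones (IARS2, MARS2 and PARS2), and in 5.78% of all. Both elements were searched on both strands, and AIMP2 held both. A match is a run of letters and was not tested as a binding site.

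In AMO1 cells all 39 genes had lower FPKM at 1000 nM than with DMSO. The median change was larger over the cytosolic enzymes and over the scaffold proteins than over the mitochondrial enzymes. Single genes of the classes overlapped in the size of their change. All 39 passed the limma test (adjusted p under 0.05) on the deposited scale, where 65.7% of the 10503 genes tested were lower, so the count says little by itself; 0 were higher, against 2.51%. The median log2 change of log2(FPKM + 1) was -1.67 over the 20 cytosolic enzymes, -0.90 over the 16 mitochondrial enzymes, -1.69 over the 3 scaffold proteins and -0.77 over all genes tested. In every one of the 39 genes the 3 libraries at 1000 nM lay below the 3 DMSO libraries, as they did in 68.6% of all genes tested. On the relative scale 20 of the 39 were lower and 0 higher, against 24.5% lower and 23.5% higher of all genes. These 20 were 14 of 20 cytosolic enzymes, 5 of 16 mitochondrial enzymes and 1 of 3 scaffold proteins.

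At the mean FPKM of each gene, the cytosolic enzymes at 1000 nM held a median of 31.3% of their DMSO level (14.2% to 59.9%), and the mitochondrial enzymes 41.7% (24.8% to 63.2%). The difference between the medians of the classes was -0.77 on the log2(FPKM + 1) scale and -0.48 with a pseudocount of 0.1 in place of 1. Several mitochondrial enzymes lie near 1 FPKM, where the larger pseudocount understates their change. Leaving GARS and KARS out gave -0.72, and the relative scale gave -0.52.

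**Figure D1:**
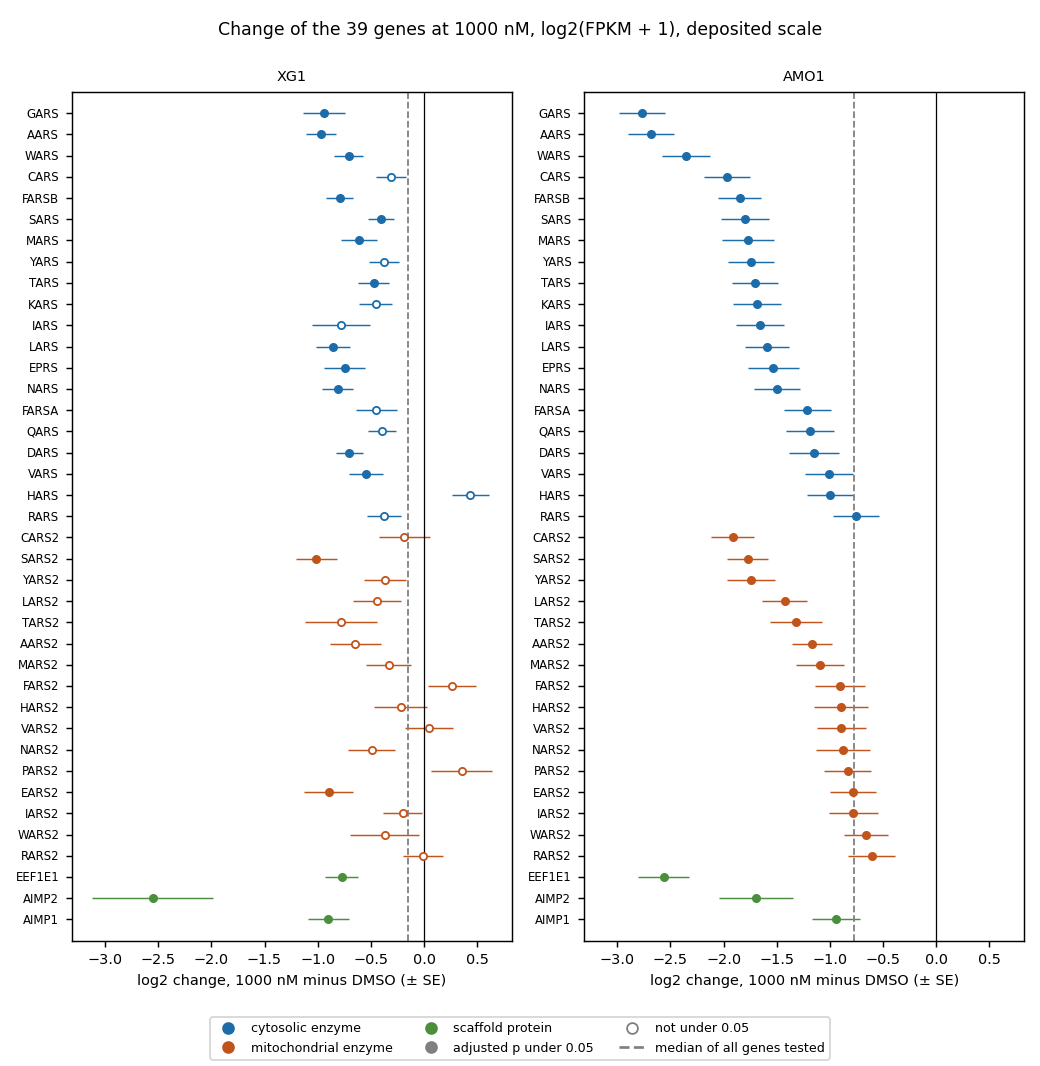
Log2 change of each of the 39 genes at 1000 nM against DMSO, on log2(FPKM + 1), in XG1 (left) and AMO1 (right). Points are limma estimates and bars their SE, filled points have an adjusted p under 0.05, colours give the class, and the dashed line is the median of all genes tested (-0.15 in XG1 and -0.77 in AMO1). In AMO1 all 39 points are filled and GARS, AARS, EEF1E1 and WARS lie furthest left; in XG1 17 are filled.

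Among the cytosolic enzymes of AMO1 the steepest falls were in GARS, AARS, WARS and CARS, none of which is part of the multi-synthetase complex. GARS, glycyl-tRNA synthetase, had 89.6, 99.7 and 90.4 FPKM with DMSO, 20.3, 21.6 and 21.0 FPKM at 100 nM, and 15.7, 8.86 and 15.1 FPKM at 1000 nM. Its 3 groups did not overlap, and its log2 change was -2.10 at 100 nM (limma adjusted p = 1.46e-05) and -2.77 ± 0.22 (SE) at 1000 nM (adjusted p = 2.42e-07), leaving 14.2% of the DMSO mean. AARS, alanyl-tRNA synthetase, had 43.7, 46.9 and 48.6 FPKM with DMSO, 10.8, 13.9 and 13.4 FPKM at 100 nM, and 8.12, 4.45 and 7.14 FPKM at 1000 nM. It too fell in steps with no overlap, by log2 changes of -1.80 (adjusted p = 4.9e-05) and -2.68 ± 0.22 (adjusted p = 2.97e-07).

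WARS, tryptophanyl-tRNA synthetase, had 176, 191 and 180 FPKM with DMSO, 65.2, 75.2 and 79.1 FPKM at 100 nM, and 39.5, 24.3 and 44.1 FPKM at 1000 nM, a log2 change of -2.35 ± 0.23 at the higher dose (adjusted p = 1.41e-06). CARS, cysteinyl-tRNA synthetase, had 77.7, 89.7 and 70.2 FPKM with DMSO, 26.7, 28.0 and 31.4 FPKM at 100 nM, and 21.2, 14.6 and 23.5 FPKM at 1000 nM, a log2 change of -1.97 ± 0.21 (adjusted p = 4.08e-06). In both genes every treated library lay below every DMSO library and the libraries at the 2 doses did not overlap. RARS, arginyl-tRNA synthetase and a member of the complex, changed least of the cytosolic enzymes. It had 60.6, 64.4 and 61.7 FPKM with DMSO, 47.1, 48.1 and 55.7 FPKM at 100 nM, and 43.0, 26.9 and 41.9 FPKM at 1000 nM. Its groups did not overlap, and the log2 change was -0.76 ± 0.21 at 1000 nM (adjusted p = 0.00612), but +0.20 on the relative scale, where it was not called (adjusted p = 0.0578).

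**Figure D2:**
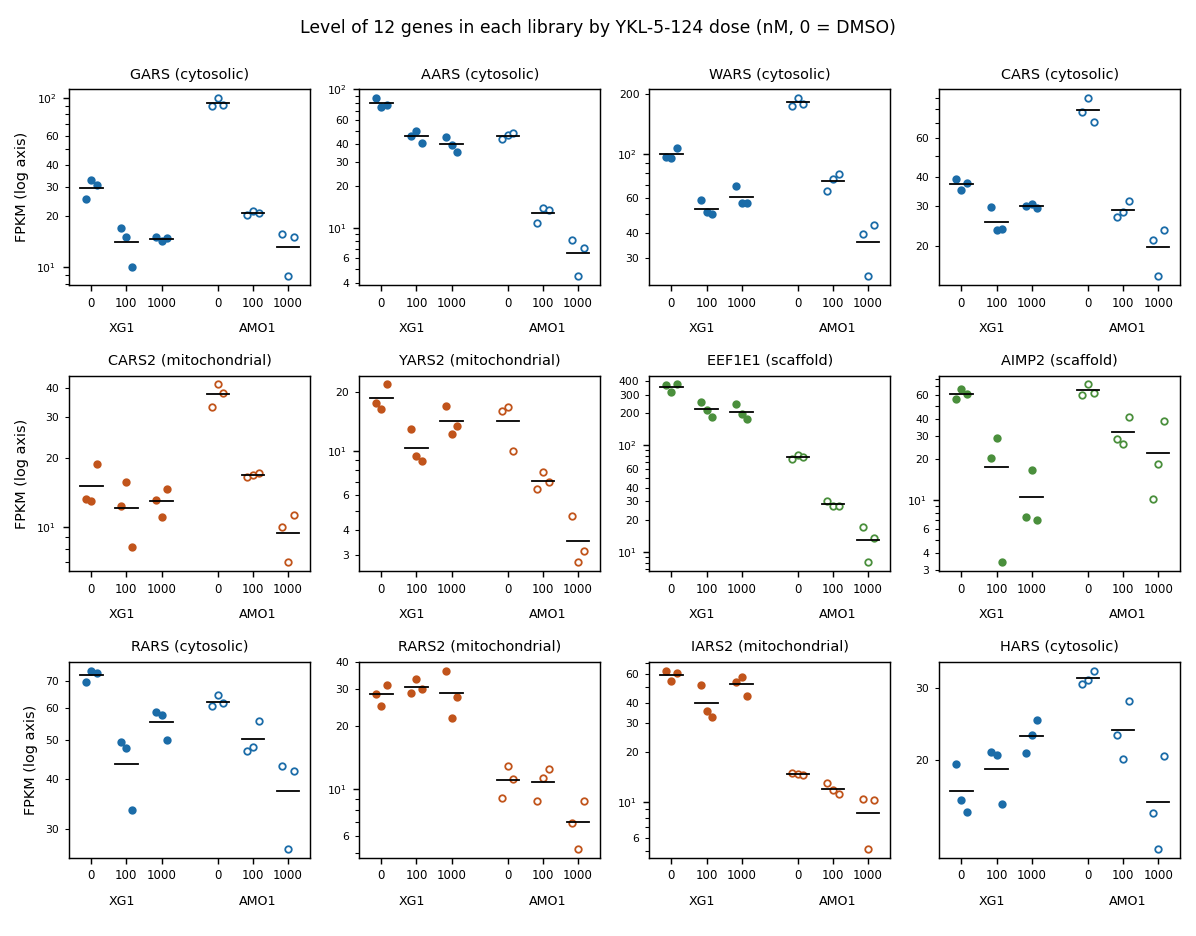
FPKM of 12 of the genes in each library, on log axes that differ between panels, by dose of YKL-5-124 (0 is DMSO), with XG1 left (filled) and AMO1 right (open). Each point is 1 library and each bar the mean of 3. In AMO1, GARS, AARS, WARS, CARS and EEF1E1 step down at each dose without overlap; in XG1 the 2 doses overlap in each of the 12 genes except RARS, and RARS2 in XG1 does not separate from DMSO.

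LARS, leucyl-tRNA synthetase of the complex and also known as a leucine sensor for mTORC1, had 31.1, 32.3 and 33.1 FPKM with DMSO, 14.8, 16.3 and 15.5 FPKM at 100 nM, and 11.6, 7.18 and 12.0 FPKM at 1000 nM in AMO1. NARS, asparaginyl-tRNA synthetase, had 76.6, 81.4 and 85.3 FPKM with DMSO, 35.0, 41.2 and 41.5 FPKM at 100 nM, and 31.9, 20.1 and 33.9 FPKM at 1000 nM. Neither gene's groups overlapped, and the log2 changes at 1000 nM were -1.59 in LARS (adjusted p = 2e-05) and -1.50 in NARS (adjusted p = 4.87e-05). The remaining 13 cytosolic enzymes fell by log2 changes between those of FARSB (-1.85) and HARS (-0.998).

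Within the cytosolic enzymes of AMO1, the 13 on the ATF4 list and the 7 others moved by different amounts. At 1000 nM on the relative scale 12 of the 13 were lower with a median log2 change of -0.82, and the exception was VARS. Of all genes tested 24.5% were lower on that scale, with a median of 0.01. Of the 7 others 2 were lower (FARSB and KARS), with a median of -0.24. The 5 with a CARE in the promoter were lower at both doses and on both scales. On the same scale, 9 of 12 enzymes outside the complex and 5 of 8 within it were lower, against the same 24.5% of all genes. By fold of the catalytic domain, 6 of 9 class I and 7 of 10 class II enzymes were lower, with EPRS, which has both, making the count 14. These splits were made with earlier results of these data known, and no test was run on them.

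The mitochondrial enzymes of AMO1 fell furthest in CARS2, SARS2 and YARS2. CARS2, the mitochondrial cysteinyl-tRNA synthetase, had 33.1, 41.7 and 38.4 FPKM with DMSO, 16.5, 16.8 and 17.2 FPKM at 100 nM, and 9.94, 6.995 and 11.2 FPKM at 1000 nM. SARS2, the seryl enzyme, had 15.8, 19.4 and 16.8 FPKM with DMSO, 7.53, 8.77 and 6.59 FPKM at 100 nM, and 4.81, 3.43 and 4.90 FPKM at 1000 nM. In both the 3 groups did not overlap, and the log2 changes at 1000 nM were -1.92 ± 0.20 in CARS2 (adjusted p = 3.54e-06) and -1.77 in SARS2 (adjusted p = 4.73e-06). YARS2, the tyrosyl enzyme and the only one of 14 mitochondrial promoters with a CARE match, had 15.98, 16.7 and 9.995 FPKM with DMSO, 6.45, 7.85 and 7.002 FPKM at 100 nM, and 4.70, 2.74 and 3.14 FPKM at 1000 nM, a log2 change of -1.74 (adjusted p = 2.1e-05). Its 100 nM call (-0.88, adjusted p = 0.0103) was lost without AMO1 DMSO replicate 2 (adjusted p = 0.0535). CARS2 and SARS2 share exon bases with neighbours on the opposite strand, ING1 and MRPS12, and the sources do not say whether counting used strand. SARS2 also shares 346 exon bases with AC011455.2 on its own strand, which counting by strand would not separate.

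LARS2, the leucyl enzyme, had 12.6, 14 and 10.01 FPKM with DMSO, 7.42, 8.23 and 7.93 FPKM at 100 nM, and 2.94, 3.63 and 5.35 FPKM at 1000 nM, a log2 change of -1.43 (adjusted p = 5.72e-05). TARS2, the threonyl enzyme, had 18.5, 26.3 and 18.2 FPKM with DMSO, 13.2, 11.5 and 17.5 FPKM at 100 nM, and 10.6, 5.49 and 7.76 FPKM at 1000 nM, a log2 change of -1.32 (adjusted p = 0.000359). In both genes the groups did not overlap, but neither was called at 100 nM. AARS2, the alanyl enzyme, had 3.68, 3.42 and 3.47 FPKM with DMSO, 1.28, 1.79 and 2.44 FPKM at 100 nM, and 0.99, 0.88 and 1.19 FPKM at 1000 nM. It fell at both doses, by -0.69 and -1.17, the smaller change losing its call without AMO1 100 nM replicate 1 (adjusted p = 0.0754). On the relative scale the mitochondrial genes called lower at 1000 nM were AARS2, CARS2, LARS2, SARS2 and YARS2.

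The smallest mitochondrial change in AMO1 was in RARS2, the arginyl enzyme. It had 9.05, 12.9 and 11.2 FPKM with DMSO, 8.76, 11.3 and 12.5 FPKM at 100 nM, and 6.91, 5.22 and 8.82 FPKM at 1000 nM. The 1000 nM libraries lay just below the DMSO range, and the call (-0.61 ± 0.22, adjusted p = 0.0254) was lost without AMO1 DMSO replicate 2 or 3 or AMO1 1000 nM replicate 2 (adjusted p up to 0.102); on the relative scale the change was +0.26 and not called. IARS2, the isoleucyl enzyme, had 10.3, 5.17 and 10.2 FPKM at 1000 nM and 14.96, 14.8 and 14.6 FPKM with DMSO, a log2 change of -0.78 (adjusted p = 0.00824) that was +0.11 and not called on the relative scale. EARS2, the glutamyl enzyme, had 2.12, 0.87 and 1.57 FPKM at 1000 nM and 3.34, 3.74 and 2.71 FPKM with DMSO (-0.78, adjusted p = 0.00515). WARS2, the tryptophanyl enzyme, had 1.29, 0.51 and 0.41 FPKM at 1000 nM and 1.75, 1.94 and 1.38 FPKM with DMSO, and its call (-0.66, adjusted p = 0.0118) was lost without AMO1 1000 nM replicate 3 (adjusted p = 0.0521). The 3 1000 nM libraries of each of these genes lay below its DMSO libraries.

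Of the scaffold proteins EEF1E1, also called AIMP3, fell furthest in AMO1. It had 74.7, 81.5 and 77.8 FPKM with DMSO, 30.0, 26.9 and 27.3 FPKM at 100 nM, and 17.1, 8.01 and 13.6 FPKM at 1000 nM. Its groups did not overlap, with log2 changes of -1.44 (adjusted p = 0.000615) and -2.56 ± 0.24 (adjusted p = 9.89e-07). AIMP2 had 60.7, 72.4 and 62.7 FPKM with DMSO, 28.2, 26.2 and 41.3 FPKM at 100 nM, and 10.0, 18.5 and 38.7 FPKM at 1000 nM. The treated libraries all lay below DMSO but were spread widely, with log2 changes of -1.04 and -1.69 ± 0.35 (adjusted p = 0.0368 and 0.000775). The 100 nM call was lost without any AMO1 DMSO library or AMO1 100 nM replicate 1 or 2 (adjusted p up to 0.109). AIMP1 had 27.1, 28.1 and 24.5 FPKM with DMSO, 20.7, 15.7 and 16.5 FPKM at 100 nM, and 15.2, 9.31 and 16.5 FPKM at 1000 nM, a log2 change of -0.94 (adjusted p = 0.00204) that was -0.02 on the relative scale.

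At 100 nM in AMO1 most cytosolic enzymes passed the test and most mitochondrial enzymes did not. On the deposited scale 22 of 39 genes were lower, against 29.5% of all genes tested, and 0 were higher, against 2.73%. They were 15 of 20 cytosolic enzymes (median log2 change -1.02), 5 of 16 mitochondrial enzymes (median -0.46) and 2 of 3 scaffold proteins. The median of all genes was -0.35. Relative to the median gene 18 were lower, against 17% of all genes, with 15 cytosolic enzymes, CARS2, SARS2 and EEF1E1 among them. All 20 cytosolic enzymes and 9 of 16 mitochondrial enzymes had their 3 treated libraries below the 3 DMSO libraries, as did 51.2% of all genes tested. On the ATF4 list 12 of 13 were lower on either scale, and 3 of the 7 others. The cytosolic enzymes held a median of 48.3% of their DMSO mean, and the mitochondrial enzymes 68.1%.

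Set directly against 100 nM in AMO1, 1000 nM gave lower FPKM in 16 of 39 genes, against 23.4% of all genes tested. They were 8 cytosolic enzymes, 7 mitochondrial enzymes and EEF1E1. On the relative scale 3 were lower, against 4.18% of all genes, and 0 higher, against 1.67%. These were EEF1E1 (-0.62), WARS (-0.52) and FARSB (-0.43), a subunit of the phenylalanyl enzyme. The count of 16 depended on single libraries. It was 7, 3 and 2 without AMO1 100 nM replicates 1, 2 and 3, and 27 without AMO1 1000 nM replicate 3. The 1000 nM and 100 nM comparisons above share their DMSO libraries.

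In XG1 cells the fall was smaller, lay mainly in cytosolic enzymes and scaffold proteins, and was of similar size at both doses. At 1000 nM 17 of 39 genes were lower and 0 higher on the deposited scale, against 13.2% lower and 3.69% higher of the 11810 genes tested. They were 12 of 20 cytosolic enzymes (median log2 change -0.58), 2 of 16 mitochondrial enzymes (SARS2 and EARS2; median of the 16 -0.35) and 3 of 3 scaffold proteins, beside a median of -0.15 over all genes. On the relative scale 14 were lower, against 10.2% of all genes. At 100 nM 20 of 39 were lower and 0 higher, against 10% and 2.48% of all genes, of which 14 were cytosolic (median -0.68), 3 mitochondrial (NARS2, SARS2 and YARS2; median of the 16 -0.43) and 3 scaffold proteins. Relative to the median gene 17 were lower at 100 nM, against 7.31%.

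The XG1 counts rest on few libraries. At 1000 nM the 17 became 11 without XG1 DMSO replicate 1, XG1 DMSO replicate 3 or XG1 1000 nM replicate 2. At 100 nM the 20 became 9 without XG1 DMSO replicate 1 and 7 without XG1 DMSO replicate 3. In 18 of 20 cytosolic enzymes the 3 treated libraries lay below the 3 DMSO libraries at 1000 nM, against 30.1% of all genes tested, and in 18 of 20 at 100 nM, against 24.6%. Of the mitochondrial enzymes 6 of 16 did at 1000 nM and 7 of 16 at 100 nM, closer to those shares. Between 1000 and 100 nM 0 of 39 genes differed by limma on either scale, where 0.322% of all genes were lower and 0.0677% higher on the deposited scale, and 0.754% and 0.161% on the relative scale; at an unadjusted p under 0.05, 0 were lower and 2 higher on the deposited scale and 0 and 4 on the relative scale. The median difference between the doses over the 39 was 0.05.

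Among the cytosolic enzymes of XG1, AARS, GARS, LARS and NARS fell most at 1000 nM. AARS had 86.4, 74.7 and 77.4 FPKM with DMSO, 46.2, 50.2 and 41.2 FPKM at 100 nM, and 45.0, 39.9 and 35.5 FPKM at 1000 nM. GARS had 25.3, 32.8 and 30.8 FPKM with DMSO, 16.99, 15.04 and 10.1 FPKM at 100 nM, and 15.1, 14.4 and 15 FPKM at 1000 nM. Treated and DMSO libraries did not overlap in either gene, while the doses did, and the log2 changes at 1000 nM were -0.97 ± 0.14 in AARS (adjusted p = 0.00113) and -0.95 ± 0.20 in GARS (adjusted p = 0.00804). LARS had 70.7, 59.8 and 60.5 FPKM with DMSO, 36.7, 30.1 and 27.5 FPKM at 100 nM, and 38.5, 35.6 and 30.3 FPKM at 1000 nM (-0.86, adjusted p = 0.00394). NARS had 90.2, 92.5 and 101 FPKM with DMSO, 63.6, 50.2 and 44.1 FPKM at 100 nM, and 56.6, 51.8 and 51.8 FPKM at 1000 nM (-0.81, adjusted p = 0.00394). In these 2 genes as well every treated library lay below every DMSO library.

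WARS in XG1 had 97.3, 95.3 and 108 FPKM with DMSO, 58.5, 51.0 and 50.0 FPKM at 100 nM, and 69.3, 56.6 and 56.9 FPKM at 1000 nM, and fell at both doses (-0.90 and -0.71, adjusted p = 0.0027 and 0.00467). CARS had 39.3, 35.1 and 37.6 FPKM with DMSO, 29.5, 23.4 and 23.7 FPKM at 100 nM, and 30.0, 30.5 and 29.4 FPKM at 1000 nM. It was not called at 1000 nM (-0.31, adjusted p = 0.165) although its treated libraries lay below DMSO. At 100 nM it was called (-0.54, adjusted p = 0.0312), a call lost without any XG1 DMSO library, XG1 100 nM replicate 2 or 3, or XG1 1000 nM replicate 2 or 3 (adjusted p up to 0.119). RARS had 58.7, 57.8 and 49.9 FPKM at 1000 nM and 69.5, 74.3 and 73.1 FPKM with DMSO, which was not called (-0.38, adjusted p = 0.13). HARS, histidyl-tRNA synthetase, stood apart with 20.7, 23.0 and 25.0 FPKM at 1000 nM and 19.5, 15.9 and 14.9 FPKM with DMSO. Its libraries at 1000 nM all lay above DMSO, while those at 100 nM (20.85, 20.5 and 15.55 FPKM) overlapped DMSO. The log2 change of +0.61 at 1000 nM was called on the relative scale (adjusted p = 0.0243, against 9.41% higher of all genes). HARS was not called on the deposited scale. This gene was picked out after its values were seen. Its exons overlap HARS2 (331 bases) and WDR55 (221 bases) on the opposite strand.

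On the ATF4 list 10 of 13 cytosolic enzymes were lower in XG1 at 1000 nM and 11 of 13 at 100 nM on the deposited scale. Of the 7 others 2 and 3 were lower, and of all genes 13.2% and 10%. By relative values 7 and 8 of the 13 were lower, against 10.2% and 7.31% of all genes. Of the 5 genes with a CARE in the promoter, AARS, GARS, MARS and NARS were lower at 1000 nM and all 5 at 100 nM. IARS, isoleucyl-tRNA synthetase, was the gene not called at 1000 nM (-0.78, adjusted p = 0.07), and its 100 nM call was lost without XG1 DMSO replicate 1 or 3 or XG1 100 nM replicate 2 or 3 (adjusted p up to 0.135). The call on MARS, methionyl-tRNA synthetase, at 1000 nM (-0.61, adjusted p = 0.0269) was lost without any XG1 DMSO or XG1 1000 nM library (adjusted p up to 0.0925), and 287 of its exon bases overlap DDIT3 on the opposite strand.

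Of the mitochondrial enzymes in XG1, SARS2 had the largest fall. It had 44.1, 36.6 and 43.4 FPKM with DMSO, 22.1, 27.5 and 18.8 FPKM at 100 nM, and 25.2, 18.4 and 17.1 FPKM at 1000 nM. The treated libraries lay below DMSO, with log2 changes of -0.85 (adjusted p = 0.0167) and -1.01 ± 0.19 (adjusted p = 0.0047). The 100 nM call was lost without XG1 DMSO replicate 1 or 3 (adjusted p up to 0.0669). EARS2 had 9.53, 10.9 and 11.1 FPKM with DMSO, 8.69, 7.84 and 4.90 FPKM at 100 nM, and 5.89, 4.04 and 5.73 FPKM at 1000 nM. Its call at 1000 nM (-0.90, adjusted p = 0.0216) was lost without any XG1 DMSO library or XG1 1000 nM replicate 2 (adjusted p up to 0.0923). TARS2 (-0.78, adjusted p = 0.142) and AARS2 (-0.65, adjusted p = 0.0901) had the next changes in size and were not called.

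RARS2 in XG1 had 28.4, 24.9 and 31.2 FPKM with DMSO, 28.6, 33.4 and 30.0 FPKM at 100 nM, and 36.6, 21.7 and 27.4 FPKM at 1000 nM. Its groups overlapped and the log2 change at 1000 nM was -0.01 (adjusted p = 0.987). CARS2, which fell furthest of the mitochondrial genes in AMO1, had 13.1, 11.1 and 14.7 FPKM at 1000 nM and 13.3, 12.97 and 18.8 FPKM with DMSO in XG1 (adjusted p = 0.651). FARS2, the phenylalanyl enzyme, was chosen after its values were seen: it had 44.9, 59.2 and 30.1 FPKM at 100 nM and 32.2, 23.6 and 31.6 FPKM with DMSO. At 100 nM it was called higher on the relative scale (+0.75, adjusted p = 0.0138, against 7.1% of all genes), and not on the deposited scale. Its 100 nM libraries overlapped DMSO. Those at 1000 nM (36.65, 34.25 and 33.59 FPKM) all lay above DMSO, without a call on the deposited scale (limma adjusted p = 0.465).

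All 3 scaffold genes were lower in XG1 at both doses. AIMP2 had 56.5, 66.6 and 61.7 FPKM with DMSO, 20.6, 28.96 and 3.40 FPKM at 100 nM, and 7.41, 16.8 and 7.06 FPKM at 1000 nM. This was the largest change of any member in XG1, to 16.9% of the DMSO mean at 1000 nM, with a log2 change of -2.55 ± 0.57 (adjusted p = 0.0113). The change at 100 nM (-2.14, adjusted p = 0.033) lost its call without any XG1 DMSO library (adjusted p up to 0.0967). AIMP2 and EIF2AK1, the gene of a kinase of the stress response, share 532 exon bases on opposite strands, and EIF2AK1 had 47.8, 46.2 and 53.4 FPKM at 1000 nM and 53.7, 48.0 and 49.9 FPKM with DMSO. EEF1E1 had 368, 318 and 373 FPKM with DMSO, 257, 213 and 185 FPKM at 100 nM, and 245, 199 and 177 FPKM at 1000 nM (-0.78, adjusted p = 0.0069). Its call at 100 nM was lost without XG1 DMSO replicate 1 or 3 (adjusted p up to 0.0668). AIMP1 had 30.6, 28.3 and 29.2 FPKM with DMSO, 16.5, 9.96 and 12.3 FPKM at 100 nM, and 13.4, 15.7 and 16.95 FPKM at 1000 nM (-0.90, adjusted p = 0.00862). Treated and DMSO libraries did not overlap in any of the 3.

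For 13 amino acids the cytosolic and the mitochondrial enzyme each have a gene of their own, and the ratio of the pair was followed within each library. The median of the 13 log2 ratios in XG1 was 2.01, 1.90 and 2.23 with DMSO, 1.51, 1.75 and 1.78 at 100 nM, and 1.42, 1.71 and 1.93 at 1000 nM. In AMO1 it was 2.33, 2.33 and 2.46 with DMSO, 2.12, 2.07 and 2.15 at 100 nM, and 2.41, 2.34 and 2.25 at 1000 nM. The libraries at 100 nM lay below DMSO in both lines, while those at 1000 nM overlapped DMSO in both. At 100 nM in AMO1 the ratio was lower in 12 of 13 pairs, by a median of -0.30, with NARS over NARS2 as the exception at +0.59. At 1000 nM in AMO1 it was lower in 9 of 13, by a median of -0.09. The largest changes there were in IARS over IARS2 (-1.14), AARS over AARS2 (-1.06), WARS over WARS2 (-1.02) and MARS over MARS2 (-0.52). The libraries at 1000 nM lay below DMSO in the pairs of IARS and AARS, and overlapped DMSO in those of WARS and MARS. In XG1 it was lower in 8 of 13 pairs at 100 nM and 9 of 13 at 1000 nM, and HARS over HARS2 had the highest change at each dose (+0.38 and +0.70). No test was run on these ratios.

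**Figure D3:**
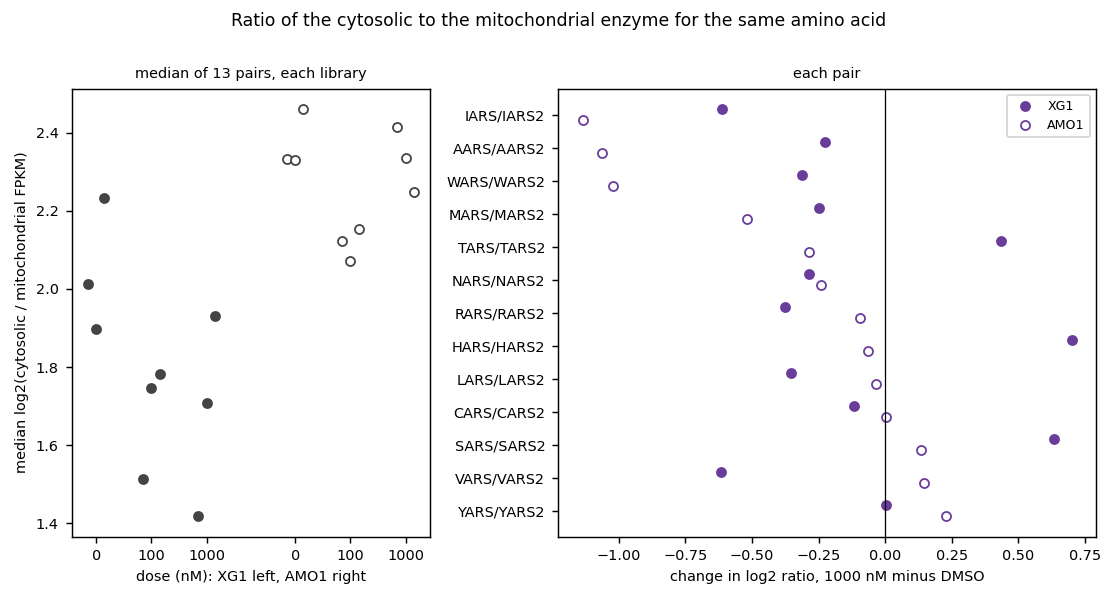
Ratio of cytosolic to mitochondrial enzyme for 13 amino acids. Left, the median log2 FPKM ratio of the 13 pairs in each library by dose (0 is DMSO), XG1 filled and AMO1 open; the 100 nM libraries lie below DMSO in both lines. Right, the change in each pair's mean log2 ratio at 1000 nM against DMSO, from -1.14 for IARS/IARS2 in AMO1 to +0.70 for HARS/HARS2 in XG1.

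With DMSO alone the lines differed in these genes about as often as in all genes on the deposited scale, and somewhat more often on the relative scale. On the deposited scale 17 of 39 were higher and 9 lower in XG1 than in AMO1, against 45% higher and 19.8% lower of the 12792 genes tested. By relative values 14 were higher and 17 lower, against 32.3% and 33.5%. GARS (log2 difference -1.63, adjusted p = 1.67e-06), CARS (-1.06) and WARS (-0.86) were lower in XG1, and so were CARS2 (-1.29) and TARS2 (-1.22). EEF1E1 (+2.16, adjusted p = 7.23e-08), WARS2 (+2.15, adjusted p = 4.61e-06) and IARS2 (+1.93, adjusted p = 4.59e-07) were higher in XG1. WARS2 had 8.39, 10.3 and 14.7 FPKM in XG1 and 1.75, 1.94 and 1.38 FPKM in AMO1, and IARS2 had 62.9, 54.7 and 60.8 FPKM in XG1 and 14.96, 14.8 and 14.6 FPKM in AMO1. Neither overlapped between the lines. AARS was called higher in XG1 on the deposited scale (+0.76, adjusted p = 0.00107) and was not called on the relative scale.

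The lines differed in how far these genes moved. The log2 change at 1000 nM was higher in XG1 than in AMO1 (a smaller fall, or no fall) for 22 of the 39 genes by the interaction test, against 32.8% of all genes, and lower for 0, against 1.5%. They were 14 cytosolic enzymes, 7 mitochondrial enzymes and EEF1E1. On the relative scale the difference remained for 11 genes, against 10.1% higher and 6.81% lower of all genes, of which 8 were cytosolic: GARS, AARS, WARS, CARS, SARS, YARS, TARS and HARS. The other 3 of the 11 were CARS2, YARS2 and EEF1E1. The 8 cytosolic enzymes are among the 12 outside the complex, and 0 of the 8 enzymes within it were called. Beside a share of 10.1% of all genes, that 0 says little about the complex. LARS, which is in the complex, was called on the deposited scale. This split was made with earlier results of these data known, and no test was run on it. The difference in log2 change, XG1 minus AMO1, was 1.82 ± 0.28 for GARS (adjusted p = 0.00022), 1.71 ± 0.25 for AARS (adjusted p = 0.000135), 1.66 ± 0.23 for CARS (adjusted p = 9.34e-05) and 1.64 ± 0.25 for WARS (adjusted p = 0.000203). CARS2 and EEF1E1 differed by 1.73 ± 0.30 and 1.79 ± 0.29. For LARS (0.73) and NARS (0.69) the difference was called on the deposited scale and was 0.05 and -0.04 on the relative scale. The call on LARS was lost without XG1 DMSO replicate 2 or 3, XG1 1000 nM replicate 1 or 2 or AMO1 DMSO replicate 2 or 3 (adjusted p up to 0.0693). That on NARS was lost without XG1 DMSO replicate 1 or 2, any XG1 1000 nM or AMO1 DMSO library, AMO1 100 nM replicate 2 or 3 or AMO1 1000 nM replicate 2 (adjusted p up to 0.0862).

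At 100 nM 3 genes differed between the lines, GARS (1.05), AARS (1.02) and CARS (0.89), against 5.37% higher and 0.86% lower of all genes, and the same 3 on the relative scale, against 6.28%. These calls were not stable: the count ranged from 0 to 7 as each library was left out in turn, and GARS lost its call without any one of 11 libraries, among them each XG1 DMSO and each AMO1 DMSO library (adjusted p up to 0.0957). RARS was called in the other direction on the relative scale, with a difference of -0.67 (adjusted p = 0.00335, against 3.26% of all genes). In RARS the 3 libraries at 100 nM lay below DMSO in both lines, with 49.3, 47.8 and 33.6 FPKM at 100 nM and 69.5, 74.3 and 73.1 FPKM with DMSO in XG1.

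**Figure D4:**
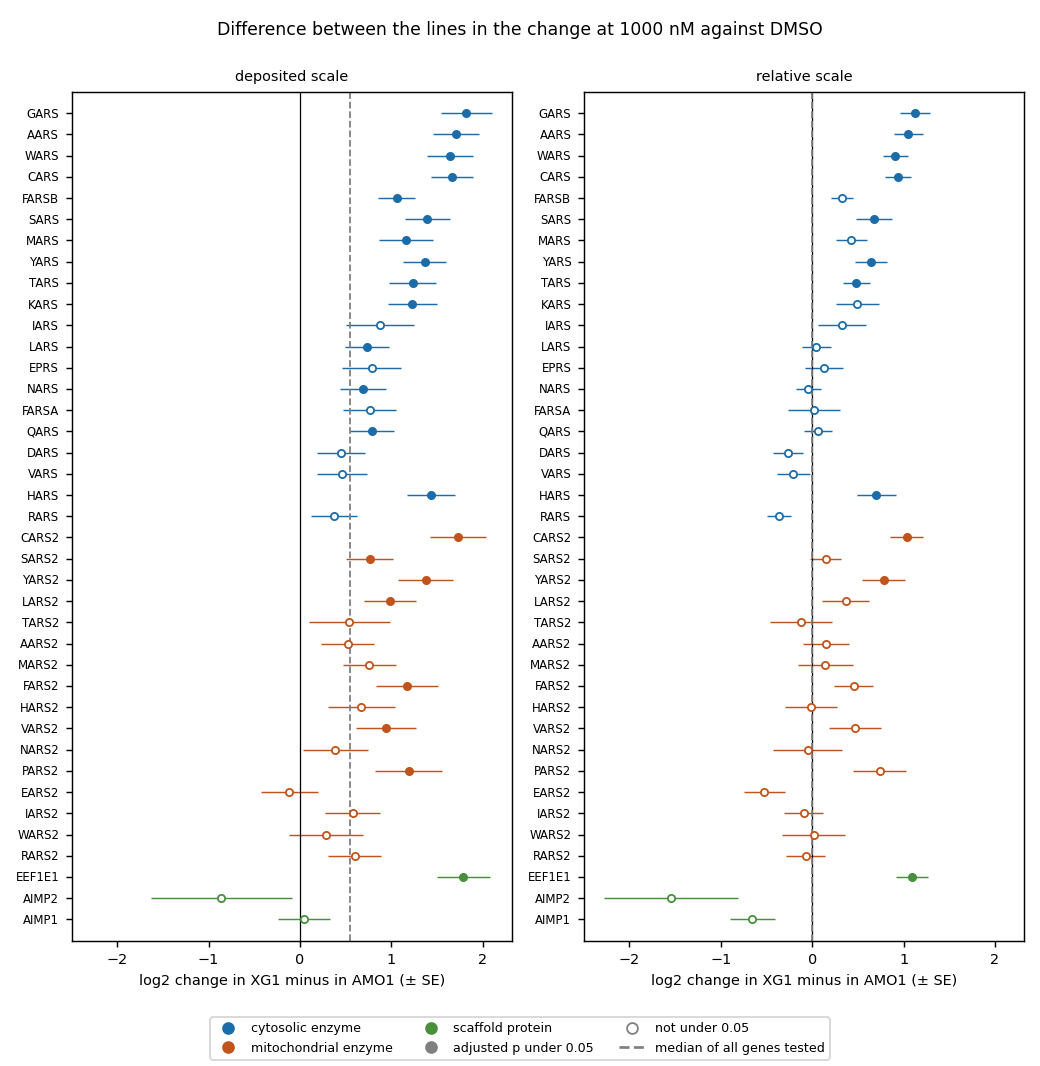
Difference between the lines in the log2 change at 1000 nM against DMSO, XG1 minus AMO1, on the deposited scale (left) and the relative scale (right). Points are limma interaction estimates with SE bars, filled where the adjusted p is under 0.05, and the dashed line is the median of all genes tested (0.55 on the deposited scale). On the deposited scale 22 points are filled; on the relative scale 11 are, with GARS (1.12) and EEF1E1 (1.09) furthest right.

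Genes that work beside the synthetases were followed in 4 lists, and their counts are to be read against the shares of all genes. ATF4 itself had 606, 645 and 601 FPKM with DMSO, 145, 135 and 170 FPKM at 100 nM, and 119, 88.8 and 143 FPKM at 1000 nM in AMO1 (-2.42 at 1000 nM, adjusted p = 5.85e-07). In XG1 it had 184, 160 and 179 FPKM with DMSO, 89.4, 106 and 62.4 FPKM at 100 nM, and 78.1, 79.5 and 79.6 FPKM at 1000 nM (-1.13, adjusted p = 0.00149). Treated and DMSO libraries did not overlap in either line, and the 2 doses overlapped in both. ASNS, which makes asparagine and is a classic ATF4 target, changed most of the stress list in both lines, by -1.39 in XG1 and -3.14 in AMO1 at 1000 nM. CEBPB, a partner of ATF4, was next in AMO1 (-2.75) and was not called in XG1 (-0.42, adjusted p = 0.282). Of the 21 regulators of the amino acid stress response that were tested, 5 were lower in XG1 and 20 in AMO1 at the higher dose by deposited FPKM, against 13.2% and 65.7% of all genes, with 10 lower and 1 higher in AMO1 on the relative scale, against 24.5% and 23.5%.

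Of 28 genes that mature and export cytosolic tRNA, 5 were lower in XG1 and 27 in AMO1 at 1000 nM, and 15 in AMO1 on the relative scale, against 13.2%, 65.7% and 24.5% of all genes. POP7, a subunit of the RNase P that trims tRNA precursors, had the largest fall in AMO1 (-2.67), followed by TPRKB of the KEOPS complex (-1.99); TSEN15, a subunit of the tRNA splicing endonuclease, had the largest fall of this list in XG1 (-0.81, adjusted p = 0.0364). Of 17 genes whose proteins receive or proofread charged tRNA, 5 were lower in XG1, against 13.2% of all genes, and 11 of 15 tested in AMO1, against 65.7%, with 7 lower and 2 higher on the relative scale, against 24.5% and 23.5%. AARSD1, which clears wrongly charged alanyl-tRNA, fell by 1.79 in AMO1, EIF5A by 1.72, and PTRH2, a peptidyl-tRNA hydrolase, by 1.09 in XG1. EEF1A1, the factor that delivers charged tRNA to the ribosome, fell by 1.53 in XG1, but it has many near-identical pseudogenes and its FPKM is uncertain. Of 27 genes of mitochondrial tRNA maturation and translation, 4 were lower in XG1 and 20 in AMO1 on the deposited scale, and 8 lower and 6 higher in AMO1 on the relative scale, counts near the shares of all genes (13.2%, 65.7%, 24.5% and 23.5%). The 2 furthest were GTPBP3 (-1.79) and PUS1 (-1.77) in AMO1, both of which modify tRNA bases, and MTIF2 (-1.14), the mitochondrial initiation factor, and C12orf65 (-0.84) in XG1.

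Some members share sequence with other genes, and their FPKM may include reads of those. In the GENCODE annotation, genes of 13 members have pseudogenes named after them, among them GARS, AARS, WARS, KARS, NARS and EEF1E1. Exons of EEF1E1 (201 bases with EEF1E1-BLOC1S5), SARS2 (346 with AC011455.2), HARS2 (152 with ZMAT2) and VARS2 (445 with GTF2H4) overlap protein-coding genes on the same strand. The sources do not say how reads with several equal alignments were counted.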

How the data were processed

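The deposited files hold 1 FPKM value per gene and library; per the submitters' processing notes the authors used HISAT2, Cuffnorm and hg19, with versions not given in the sources used here. Each of the 18 tables had 26341 rows, 92 of them spike-ins and 26249 genes. The spike-in sums differ little between libraries, as values rescaled on spike-ins would, but no source states such a step. The members, the ATF4 list and the other lists were chosen with earlier results of these data known.

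Values were taken as log2(FPKM + 1), since FPKM are not counts; genes at 1 FPKM or more in at least 3 libraries of a fit were tested with limma 3.58.1 (R 4.3.3; eBayes with a trend, Benjamini-Hochberg over all genes tested, adjusted p 0.05). Each line was fitted with its 3 groups, and lines and responses with all 18 libraries. A change on log2(FPKM + 1) understates that of low genes. The relative scale divides each library by its median-of-ratios size factor over the tested genes. The code was tested on simulated data. Same-numbered replicates did not deviate together (correlations of deviations from -0.178 to 0.157), so no pairing was used. Genes given in full were the 4 with the largest change and the 1 with the smallest at 1000 nM per class and line (all 3 scaffold proteins), and those with the smallest adjusted p between lines and responses; others are said to be chosen after their values were seen. Tables and plots used Python 3.11.15, pandas 2.3.3 and matplotlib 3.10.9. Promoters are RefSeq's on GRCh38.p14 and overlaps are from GENCODE; no hg19 coordinate is printed. Alternatives tried were the pseudocount, the filter, the scale, the trend, the libraries in the fit, a replicate block and leaving out each library.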

Additional observations from a re-analysis of the deposited data

Results flagged for a closer look

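The test of the difference between the lines was passed by 11 of the genes given in full at 1000 nM and by 3 at 100 nM. At 1000 nM the difference in log2 change, XG1 minus AMO1, was 1.82 for GARS, 1.71 for AARS, 1.66 for CARS and 1.64 for WARS among cytosolic enzymes. It was 0.73 for LARS and 0.69 for NARS, both of which lost their call on the relative scale. Among mitochondrial enzymes it was 1.73 for CARS2, 1.38 for YARS2 (limma adjusted p = 0.00281), 0.99 for LARS2 (adjusted p = 0.0151) and 0.76 for SARS2 (adjusted p = 0.0326). LARS2 and SARS2 also lost their call on the relative scale. SARS2 lost it as well without any one of 5 libraries (XG1 DMSO replicate 2, XG1 1000 nM replicate 1, AMO1 DMSO replicate 2 or 3, AMO1 1000 nM replicate 2; adjusted p up to 0.0941). For EEF1E1 the difference was 1.79. At 100 nM it was 1.05 for GARS, 1.02 for AARS and 0.89 for CARS, with adjusted p of 0.0346, 0.0215 and 0.0301. The lines also differ in their level of these genes with DMSO and in their cell type markers, and the part of either in these differences was not tested.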

How the results depend on the processing

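In AMO1 at 1000 nM the 39 lower genes became 20 on the relative scale and 20 with the replicate block on that scale, where 1 was higher. RARS (+0.20), RARS2 (+0.26) and IARS2 (+0.11) changed sign on both. The class difference of -0.77 was -0.48 with pseudocount 0.1 and -0.52 on the relative scale, with or without the block; at 100 nM it lay between -0.62 and -0.44 as each library was left out. In AMO1 at 100 nM 1 gene was higher with the block on the relative scale. Between the AMO1 doses the 16 lower genes became 3 without the filter, 3 on the relative scale, 10 with the replicate block, 3 with block and relative scale, and 2 to 27 as libraries were left out. In XG1 at 1000 nM the 17 became 11 without the filter and 11 to 21 as libraries were left out, with 1 higher on the relative scale. In XG1 at 100 nM the 20 became 7 to 22 as libraries were left out; 1 was higher on the relative scale, 1 with the block on it, and 0 to 1 as libraries were left out. Between the lines with DMSO the 9 lower genes became 17 on the relative scale and 14 with the block on it. For the response at 1000 nM the 22 became 11 on the relative scale and 11 with the block on it, where 1 was lower and NARS stood at -0.04. For the response at 100 nM the 3 became 0 with the block, 6 with only the libraries compared, and 0 to 7 as libraries were left out; 1 gene was lower on the relative scale, with or without the block. The cause of these shifts was not tested. The numbers on the replicates did not pair them. Of the values of single genes, 92 of 93 kept direction and side of the threshold with pseudocount 0.1, 72 of 93 without the filter, 83 of 93 with the replicate block and 67 of 93 on the relative scale, where 22 lost their call and 4 changed sign.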
